A study of Mus musculus with 6 samples.

Results

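The Hoxa genes are the A cluster of the Hox family, the homeodomain transcription factors that mark position along the body axis. Their transcripts were compared between libraries from lnc956 knockout and wild-type mice. Rows of the deposited gene table whose symbol starts with Hoxa and a digit were taken, which gave 9 of 7101 rows. They are 8 protein-coding genes (Hoxa2, Hoxa3, Hoxa5, Hoxa7, Hoxa9, Hoxa10, Hoxa11 and Hoxa13) and Hoxa11os, a noncoding transcript from the strand opposite to Hoxa11. The coding genes were grouped by paralog number into 4 anterior genes (Hoxa2 to Hoxa7), 3 middle genes (Hoxa9 to Hoxa11) and 1 terminal gene (Hoxa13). The study had 3 libraries labelled lnc956 knockout and 3 labelled wild type, made from total RNA of tissue labelled embryo. Both genotypes were of the C57BL/6N strain and were taken at E12.5, in mid-gestation. lnc956 is a long noncoding RNA. How its gene was deleted, and whether a library came from 1 embryo or from several, are not given in the sources used here. The labels do not say whether replicates are separate embryos or litters. The p-values therefore cover the spread between these samples only, which may be technical.

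Hox genes lie in clusters whose order along the chromosome follows the order of their expression along the embryo, from hindbrain and neck at one end to tail, digits and genitalia at the other. Retinoic acid, Cdx factors and Gdf11 switch them on in sequence, Polycomb and Trithorax proteins hold them silent or active, and the proteins bind DNA together with Pbx and Meis cofactors. The posterior part of the A cluster has a further role in the adult female tract. There Hoxa9, Hoxa10, Hoxa11 and Hoxa13 mark the oviduct, the uterus, the lower uterus and the cervix in turn, and Hoxa10 and Hoxa11 are needed for the uterine stroma to form decidua, the maternal lining that receives the embryo.

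The libraries labelled lnc956 knockout carried few transcripts of embryonic tissues and many of placenta and decidua, so their markers go against the label embryo. All 6 neuron markers in the table (of 10 on the list) were lower in knockout, with sums of 1.58 to 18.0 FPKM in knockout libraries against 636 to 671 FPKM in wild-type libraries. FPKM is a fragment count scaled to transcript length and to the mapped fragments of the library. The 8 limb mesenchyme markers summed to 5.60 to 14.4 FPKM in knockout libraries and to 171 to 202 FPKM in wild-type libraries. All 9 decidual stroma markers in the table (of 10) were higher, with sums of 8860 to 10514 FPKM in knockout libraries against 72.5 to 96.2 FPKM in wild-type libraries. Prl8a2 alone was at 6097 to 7136 FPKM in knockout libraries. Wnt4 was no longer called when any library but knockout replicate 1 was left out. Alpl was no longer called without wild-type replicate 2 or 3 or knockout replicate 1 or 3, nor Bmp2 without wild-type replicate 3. The 10 trophoblast markers in the table (of 12) summed to 14203 to 34922 FPKM in knockout libraries, with 8 of them called higher and Gcm1 and Syna not tested, and to 4.58 to 7.36 FPKM in wild-type libraries. The 9 uterine natural killer cell markers summed to 7583 to 18954 FPKM in knockout libraries and to 1.05 to 3.14 FPKM in wild-type libraries. Of the decidual markers, Pgr stayed below 1 FPKM in every wild-type library, as did 8 of the 10 trophoblast markers and 8 of the 9 natural killer cell markers. Of 6 smooth muscle markers 4 were in the table, where Des was higher and Acta2 and Tagln were lower in knockout. Myh11 was below 1 FPKM in every knockout library and was not tested. Of 6 uterine epithelium markers 4 were in the table, where Ltf, Krt8 and Krt18 were higher and Wnt7a was lower. The 2 somite markers in the table (of 7) were lower, and of the 6 kidney and genital ridge markers in the table (of 7) 5 were lower and Wt1 was higher. Below 1 FPKM in every knockout library were 5 of 6 neuron markers, 5 of 8 limb mesenchyme markers and the 2 somite markers. So were the 5 lower kidney and genital ridge markers and Wnt7a. These passed the filter of 1 FPKM in 3 libraries through wild type alone and had to be lower. Likewise Pgr, 6 of the 8 tested trophoblast markers and the 8 natural killer cell markers had to be higher. Of all genes tested, 47.2% were called higher and 49.2% lower. Genotype and tissue content cannot be told apart in this design, and the part of tissue content in each difference below was not tested. In bulk RNA, fewer cells of a type and less RNA per cell cannot be told apart either.

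In GENCODE M21 on GRCm38 the cluster lies on chromosome 6, with its coding genes on the minus strand. Hoxa4 and Hoxa6 were not analysed here. The table holds no coordinates and the submitters' processing notes name both mm9 and mm10, so positions are those of the annotation. Hoxa2 lies at 52162417 to 52164831, Hoxa3 at 52169062 to 52213336, Hoxa5 at 52201754 to 52204587 and Hoxa7 at 52214491 to 52221854. Hoxa9 follows at 52223100 to 52231089, Hoxa10 at 52231197 to 52240854, Hoxa11 at 52242106 to 52245810 and Hoxa13 at 52257694 to 52260880. Hoxa11os is on the plus strand at 52244393 to 52249799. The long annotated span of Hoxa3 covers Hoxa5 without sharing an exon base with it.

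The direction of the difference between genotypes turned between Hoxa7 and Hoxa9, whose annotated spans are 1245 bases apart, and turned back between Hoxa11 and Hoxa13. Promoter windows from RefSeq on GRCm38.p6, 250 bases before to 50 bases after each start, are shown for the genes at these turns, for Hoxa2, whose knockout mean was the lowest share of its wild-type mean, and for Hoxa10, the most abundant Hoxa transcript in knockout libraries. All 9 rows matched a window, with 2 starts for Hoxa10, of which the inner one is shown. The starts of the Hoxa7 and Hoxa9 windows, at 52218573 and 52227370, also lie inside the annotated spans given above and not at their ends. Capitals mark matches to 4 motifs searched on both strands: TATAAA, the TATA box; TTTATG, a core bound by Cdx and posterior Hox proteins; TGATNNAT, a composite of Pbx and Hox; and AGGTCA, a nuclear receptor half-site that includes those of retinoic acid receptors.
Hoxa2 (chr6:52164782-52165081, minus strand): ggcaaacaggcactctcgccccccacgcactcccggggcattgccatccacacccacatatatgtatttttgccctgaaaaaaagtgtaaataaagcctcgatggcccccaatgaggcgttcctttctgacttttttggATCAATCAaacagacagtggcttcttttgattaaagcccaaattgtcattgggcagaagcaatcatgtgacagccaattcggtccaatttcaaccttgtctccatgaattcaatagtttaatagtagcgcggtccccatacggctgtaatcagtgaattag
Hoxa7 (chr6:52218524-52218823, minus strand): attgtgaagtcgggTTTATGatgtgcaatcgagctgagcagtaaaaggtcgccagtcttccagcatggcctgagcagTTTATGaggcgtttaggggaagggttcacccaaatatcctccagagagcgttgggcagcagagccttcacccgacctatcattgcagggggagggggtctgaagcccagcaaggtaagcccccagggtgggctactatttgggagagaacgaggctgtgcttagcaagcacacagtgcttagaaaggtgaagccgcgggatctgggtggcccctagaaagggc
Hoxa9 (chr6:52227321-52227620, minus strand): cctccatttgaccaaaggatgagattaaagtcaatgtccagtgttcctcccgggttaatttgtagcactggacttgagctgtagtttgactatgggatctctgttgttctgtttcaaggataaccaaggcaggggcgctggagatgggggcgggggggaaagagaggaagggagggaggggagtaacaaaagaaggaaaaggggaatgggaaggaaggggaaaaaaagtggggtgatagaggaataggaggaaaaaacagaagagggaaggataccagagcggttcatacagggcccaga
Hoxa10 (chr6:52234890-52235189, minus strand): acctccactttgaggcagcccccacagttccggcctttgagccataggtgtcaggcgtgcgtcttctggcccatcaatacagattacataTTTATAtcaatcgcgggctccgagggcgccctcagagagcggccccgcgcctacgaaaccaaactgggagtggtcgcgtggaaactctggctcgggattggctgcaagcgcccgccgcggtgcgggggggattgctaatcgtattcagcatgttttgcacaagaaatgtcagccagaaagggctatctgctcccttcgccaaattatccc
Hoxa11 (chr6:52245761-52246060, minus strand): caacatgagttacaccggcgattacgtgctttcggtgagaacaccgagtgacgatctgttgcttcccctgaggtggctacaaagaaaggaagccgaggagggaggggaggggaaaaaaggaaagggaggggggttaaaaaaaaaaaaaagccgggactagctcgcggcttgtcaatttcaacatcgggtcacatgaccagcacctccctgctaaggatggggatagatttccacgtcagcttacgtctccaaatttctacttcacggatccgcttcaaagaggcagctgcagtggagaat
Hoxa13 (chr6:52260831-52261130, minus strand): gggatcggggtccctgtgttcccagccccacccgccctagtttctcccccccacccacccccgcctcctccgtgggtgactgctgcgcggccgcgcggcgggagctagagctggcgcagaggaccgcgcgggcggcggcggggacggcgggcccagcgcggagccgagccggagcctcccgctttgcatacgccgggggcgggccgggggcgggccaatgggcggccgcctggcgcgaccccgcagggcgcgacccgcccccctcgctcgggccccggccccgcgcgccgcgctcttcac

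Matches were few. TTTATG was found in the Hoxa7 window alone, starting 236 and 173 bases before the start, and 11.9% of all 32851 promoter windows hold it. TGATNNAT was found once, in the Hoxa2 window 111 bases before the start as ATCAATCA, against 8.85% of all windows. TATAAA, read as TTTATA on the printed strand, was found in the inner Hoxa10 window 160 bases before the start and in the Hoxa11os window 243 bases before it, against 13.6% of all windows. AGGTCA was found in the Hoxa5 window, from base 42 after the start, against 16.3% of all windows. No matches overlapped. A match is a description of the letters and not of a bound site. The windows differed in base composition, from 45.7% G and C in Hoxa2 to 81.0% in Hoxa13, where the median window holds 52.7%. CpG pairs ranged from 4 in Hoxa9 to 45 in Hoxa13, with a median of 7 over all windows.

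The comparison asks how transcripts of the cluster differ between libraries labelled as embryos without and with lnc956. The anterior genes Hoxa2 to Hoxa7 and the terminal gene Hoxa13 were nearly missing from the knockout libraries, while the middle genes Hoxa9, Hoxa10 and Hoxa11 and the antisense Hoxa11os were higher there. Fitted with limma on log2(FPKM + 1), which shrinks the change of genes with low values, and with Benjamini-Hochberg adjustment over 6487 genes, 9 of the 9 rows passed an adjusted p under 0.05. Of these, 4 were higher and 5 lower in knockout. The same rule called 96.4% of all genes tested, 47.2% higher and 49.2% lower, so that all Hoxa rows passed is close to the background of this table, which largely holds genes that differ. The groups did not overlap in any of the 9 rows, against 95.6% of all 7101 rows, of which 47.1% lay higher and 48.5% lower in knockout. Hoxa2, Hoxa3, Hoxa5, Hoxa7 and Hoxa13 passed the filter on low values through the wild-type libraries alone and so had to differ. The median log2 change was −3.19 over the 4 anterior genes, 3.76 over the 3 middle genes and −1.22 for Hoxa13, where the median of all genes tested was 0.38. That median was 0.69 with trimmed-mean rescaling and −0.04 with quantile normalization, and no Hoxa direction turned under either.

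**Figure D1:**
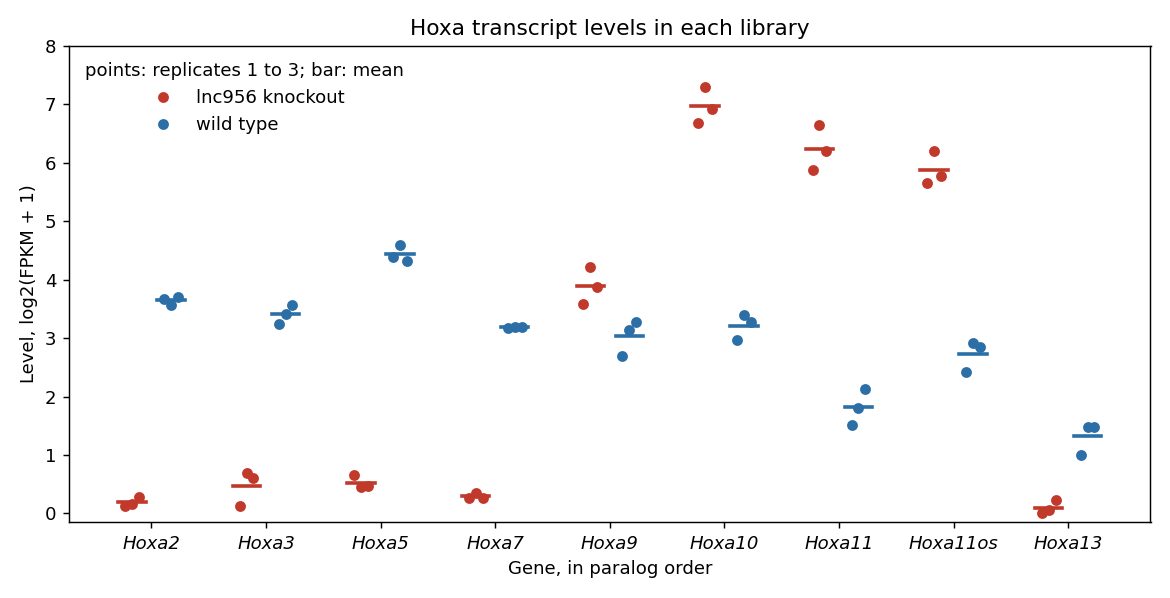
Levels of the 9 Hoxa transcripts on the log2(FPKM + 1) scale, with 1 point per library and a bar at the mean of each genotype, lnc956 knockout left of wild type. The knockout points lie below the wild-type points for Hoxa2, Hoxa3, Hoxa5, Hoxa7 and Hoxa13 and above them for Hoxa9, Hoxa10, Hoxa11 and Hoxa11os.

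Of the anterior genes, Hoxa2 specifies the hindbrain and the neural crest of the second pharyngeal arch. It was at 0.0975, 0.120 and 0.220 FPKM in knockout replicates 1 to 3, against 11.7, 10.9 and 12.1 FPKM in wild-type replicates 1 to 3. The knockout libraries thus held 1.26% of the wild-type mean (log2 change −3.45, SE 0.13, limma adjusted p = 7.03e-07). This was the lowest share among the coding Hoxa genes, although the log2 change of Hoxa5 was larger, and no knockout value came near a wild-type value.

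Hoxa3 is needed for the thymus, the parathyroids and other derivatives of the pharyngeal arches. It stood at 0.0864, 0.620 and 0.524 FPKM in the knockout libraries and at 8.48, 9.60 and 10.9 FPKM in the wild-type libraries. Its mean was 4.24% of wild type (log2 change −2.93, SE 0.19, limma adjusted p = 5.6e-06). Knockout replicate 1 was well below the other knockout libraries, a spread not seen in Hoxa5 or Hoxa7.

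Hoxa5 acts in the neck, the shoulder girdle, the trachea and the lung. It was at 0.579, 0.366 and 0.383 FPKM in the knockout libraries, against 20.0, 23.2 and 18.9 FPKM in the wild-type libraries, where no other Hoxa transcript was as abundant. Its mean there was 2.14% of wild type (log2 change −3.91, SE 0.15, limma adjusted p = 8.04e-07). All knockout values were below 1 FPKM, and the genotypes did not overlap.

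Hoxa7 takes part in the patterning of the thoracic vertebrae. It was at 0.204, 0.269 and 0.197 FPKM in knockout libraries and at 8.07, 8.08 and 8.11 FPKM in wild-type libraries, or 2.76% of the wild-type mean (log2 change −2.89, SE 0.11, limma adjusted p = 8.37e-07). Wild-type values varied by a coefficient of variation of 0.256%, the smallest of the 9 rows, where those of Hoxa9 and Hoxa11 varied by 23.2% and 29.0%.

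Hoxa9, the next gene along the chromosome, acts in the lumbar region and in blood progenitors and is expressed in the oviduct. It was at 10.97, 17.6 and 13.7 FPKM in the knockout libraries, against 5.44, 7.82 and 8.74 FPKM in the wild-type libraries. The mean was 1.92 times that of wild type (log2 change 0.86, SE 0.23, limma adjusted p = 0.00823). This was the smallest change of the coding Hoxa genes, and the lowest knockout value was not far above the highest wild-type value. With wild-type replicate 1 left out its log2 change was 0.68 (limma adjusted p = 0.0319), the smallest when a library was left out.

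Hoxa10 gives uterine identity to the female tract and is required in mice for the response of the uterine stroma to progesterone. It was the most abundant Hoxa transcript in each knockout library, at 102, 157 and 121 FPKM, against 6.86, 9.47 and 8.73 FPKM in wild type. The mean was 15.1 times that of wild type (log2 change 3.76, SE 0.20, limma adjusted p = 2.23e-06). Hoxa11, which shapes the forearm and lower leg, the kidney and the uterus, had the largest rise of the cluster. It was at 57.4, 99.3 and 72.5 FPKM in knockout libraries and at 1.87, 2.50 and 3.36 FPKM in wild-type libraries, a mean 29.7 times higher in knockout (log2 change 4.42, SE 0.25, limma adjusted p = 2.66e-06). In both genes every knockout library lay far above every wild-type library.

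Among knockout libraries, replicate 2 was highest and replicate 1 lowest in Hoxa9, Hoxa10, Hoxa11 and Hoxa11os. This order was found in 5 of 9 decidual stroma markers in the table (Dcn, Des, Hand2, Pgr and Cryab), in 7 of 9 natural killer cell markers, in 3 of 4 smooth muscle markers and in 0 of 10 trophoblast markers. The decidual genes Prl8a2, Wnt4, Bmp2 and Alpl and the natural killer cell genes Il2rb and Nkg7 had other orders. Des is on both the decidual and the smooth muscle list. The order was not particular to these tissues. It was also found in 4 of 19 genes of the other Hox clusters, but Hoxd8, Hoxd9, Hoxd10 and Hoxd11, which were higher in knockout, had other orders. The order was found, too, in 6 of 9 retinoic acid genes, 4 of 6 Hox cofactors and 4 of 12 Polycomb genes. Among other markers it was found in 2 of 6 for neuron, 1 of 4 for uterine epithelium and 1 of 8 for limb mesenchyme. Its share over all genes was not counted. Dcn, a proteoglycan gene of stroma, was at 621, 1563 and 897 FPKM in knockout replicates 1 to 3, against 17.9 to 26.6 FPKM in wild type. Des, an intermediate filament gene also made in decidual stroma, was at 378, 862 and 520 FPKM in these knockout libraries and at 9.10 to 13.8 FPKM in wild type. The progesterone receptor gene Pgr was at 14.4, 27.3 and 16.8 FPKM in knockout and at 0.0674 to 0.105 FPKM in wild type. The granzyme gene Gzmd was at 1751, 5067 and 3103 FPKM in knockout and at 0.137 to 0.259 FPKM in wild type. The trophoblast hormone gene Prl3b1 had another order, at 6901, 6251 and 5160 FPKM in knockout and 0.195 to 1.37 FPKM in wild type. With 3 knockout libraries no correlation was computed, and the part of these tissues in the Hoxa levels was not tested.

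Hoxa13, the last gene of the cluster, is needed for the digits, the genital tubercle and the end of the hindgut. It was listed at 0, 0.0431 and 0.179 FPKM in knockout replicates 1 to 3, against 1.01, 1.80 and 1.79 FPKM in wild-type replicates 1 to 3. It was the least abundant coding Hoxa gene in each of the 6 libraries (log2 change −1.22, SE 0.15, limma adjusted p = 0.00012). The genotypes did not overlap, but the wild-type values were close to the filter of 1 FPKM. The size of its change depended on the pseudocount, with a log2 change of −3.32 at a pseudocount of 0.1 and −0.36 at 5.

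Hoxa11os is transcribed opposite Hoxa11, and in the mouse limb bud it is made in the distal part where Hoxa11 is low. It was at 49.5, 72.2 and 53.6 FPKM in knockout libraries, against 4.36, 6.52 and 6.17 FPKM in wild-type libraries, a mean 10.3 times higher in knockout (log2 change 3.15, SE 0.20, limma adjusted p = 5.37e-06). The antisense level was 0.863, 0.727 and 0.739 times that of Hoxa11 in knockout replicates 1 to 3 and 2.33, 2.61 and 1.84 times that of Hoxa11 in wild-type replicates 1 to 3. Antisense thus exceeded sense in each wild-type library and was below it in each knockout library. By a two-sided exact permutation test of the log2 ratio p was 0.1, the smallest that 3 libraries against 3 allow. The annotated genes overlap over 1418 bases, and 800 exon bases are shared, which is 35.0% of the Hoxa11 exon bases and 26.0% of those of Hoxa11os. Counting by strand is not stated, so reads from this stretch may have been given to either gene.

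**Figure D2:**
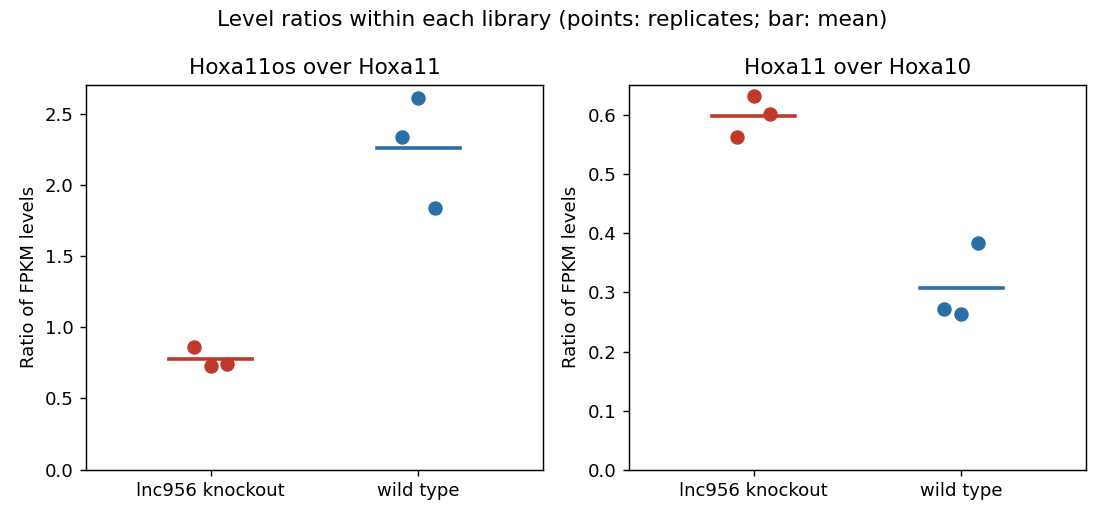
Ratio of FPKM levels within each library, Hoxa11os over Hoxa11 on the left and Hoxa11 over Hoxa10 on the right, with 1 point per library and a bar at the mean, lnc956 knockout left of wild type. The antisense ratio is below 1 in each knockout library and above 1 in each wild-type library, and the Hoxa11 to Hoxa10 ratio of every knockout library lies above those of wild type.

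The balance within the middle genes also differed between the genotypes. Hoxa11 was 0.563, 0.633 and 0.602 times the level of Hoxa10 in knockout replicates 1 to 3, against 0.272, 0.264 and 0.385 times in wild-type replicates 1 to 3. Hoxa9 was 0.108, 0.112 and 0.114 times the level of Hoxa10 in the knockout libraries and 0.793, 0.826 and 1.001 times in the wild-type libraries. The knockout libraries were close to each other in both ratios, although their Hoxa10 level ranged from 102 to 157 FPKM. Neither ratio overlapped between the genotypes, and the same exact permutation test gave p = 0.1 for each, with p = 0.1 after Benjamini-Hochberg adjustment over the 3 ratios.

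Summed over the 8 coding genes, Hoxa transcripts reached 171, 275 and 208 FPKM in knockout replicates 1 to 3, against 63.4, 73.3 and 72.7 FPKM in wild-type replicates 1 to 3. FPKM is per length, so levels were set side by side between genes. The level of Hoxa11 carries the limit given above, that reads shared with Hoxa11os may have been given to either gene. The 3 middle genes held 99.3% to 99.5% of this sum in knockout libraries and 22.4% to 28.7% in wild-type libraries. The 4 anterior genes held 0.4999% to 0.635% in knockout libraries and 68.9% to 76.0% in wild-type libraries. Hoxa10 alone held 57.0% to 59.5% of the sum in knockout libraries and 10.8% to 12.9% in wild-type libraries. Hoxa5 held 0.133% to 0.338% in knockout libraries and 26.1% to 31.6% in wild-type libraries.

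**Figure D3:**
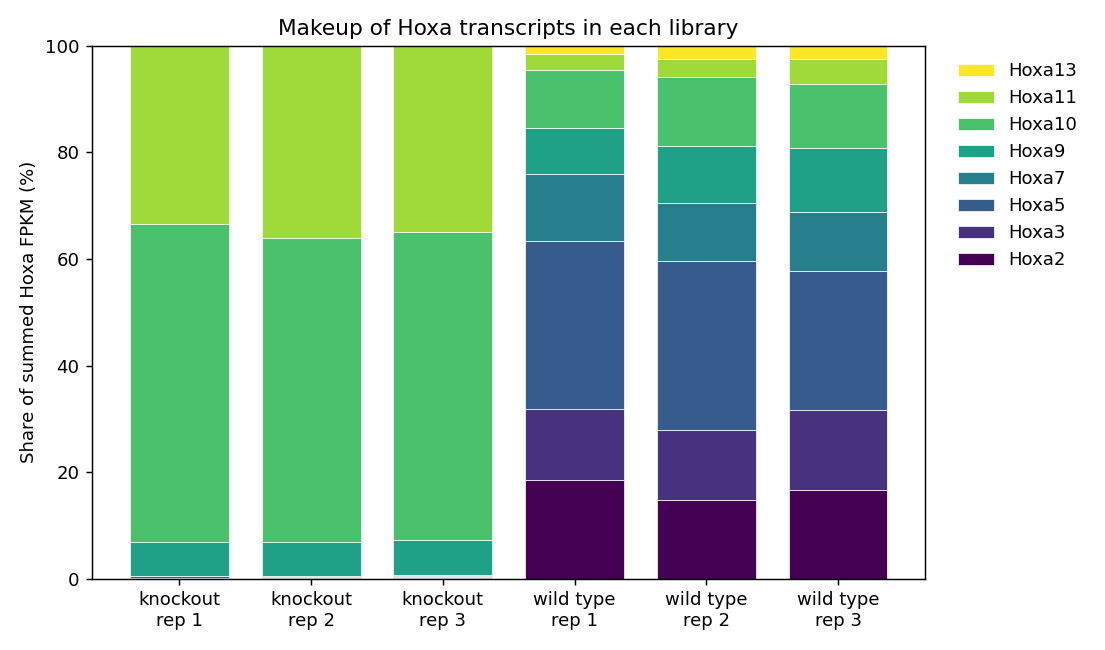
Share of the summed FPKM of the 8 coding Hoxa genes held by each gene, as stacked bars for each library, 3 lnc956 knockout libraries left of 3 wild-type libraries. Hoxa10 holds 57.0% to 59.5% of each knockout bar and Hoxa11 most of the rest, while Hoxa5 holds the largest share of each wild-type bar, 26.1% to 31.6%.

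The order of levels in knockout libraries was Hoxa10 (126 ± 27.9 FPKM, mean ± SD, n = 3), Hoxa11 (76.4 ± 21.2), Hoxa9 (14.1 ± 3.36), Hoxa5 (0.443 ± 0.118), Hoxa3 (0.410 ± 0.284), Hoxa7 (0.224 ± 0.0399), Hoxa2 (0.146 ± 0.0649) and Hoxa13, which was listed at 0 in replicate 1 and has no mean here. There the values of Hoxa10, Hoxa11 and Hoxa9 did not overlap with those of the next gene in the order. Those of Hoxa5 and Hoxa3, Hoxa3 and Hoxa7, Hoxa7 and Hoxa2, and Hoxa2 and Hoxa13 did. In wild-type libraries the order was Hoxa5 (20.7 ± 2.22 FPKM, n = 3), Hoxa2 (11.6 ± 0.634), Hoxa3 (9.66 ± 1.21), Hoxa10 (8.35 ± 1.34), Hoxa7 (8.09 ± 0.0207), Hoxa9 (7.34 ± 1.70), Hoxa11 (2.58 ± 0.747) and Hoxa13 (1.53 ± 0.450). The neighbours from Hoxa2 down to Hoxa9 overlapped, while Hoxa5 stood above Hoxa2, Hoxa9 above Hoxa11 and Hoxa11 above Hoxa13 without overlap. Overlap here compares values across libraries. Within each wild-type library, Hoxa2 stood above Hoxa3 and Hoxa3 above Hoxa10, and within each knockout library Hoxa2 stood above Hoxa13.

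The other Hox clusters place this pattern by paralog group. All 19 rows of Hoxb, Hoxc and Hoxd genes passed limma, 4 higher and 15 lower in knockout, against the same background of 47.2% and 49.2% of all genes. Of the 15 lower genes, 8 (Hoxb4, Hoxb5, Hoxc4, Hoxc6, Hoxc8, Hoxc10, Hoxd1 and Hoxd13) were below 1 FPKM in every knockout library, passed the filter through wild type alone and so had to differ. In paralog groups 1 to 7, all 14 genes of the 4 clusters in the table were lower. Group 9 was split, with Hoxa9 and Hoxd9 higher and Hoxb9 lower. In group 10, Hoxa10 and Hoxd10 were higher and Hoxc10 lower, and in group 11 Hoxa11 and Hoxd11 were both higher. Hoxa13 and Hoxd13 were both lower. The 8 Hoxb and 4 Hoxc genes in the table were all lower, with median log2 changes of −2.96 and −3.65.

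**Figure D4:**
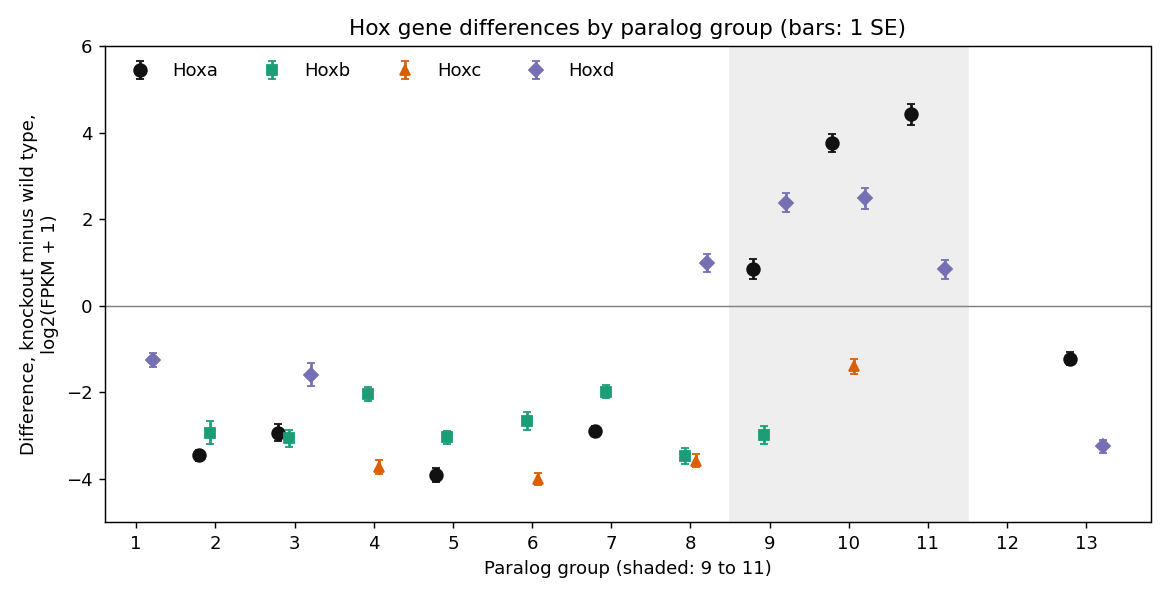
Difference in log2(FPKM + 1), knockout minus wild type, of 27 coding Hox genes against paralog group, with bars of 1 SE from limma and the groups 9 to 11 shaded. Hoxa and Hoxd points lie above 0 in the shaded groups, where Hoxb9 and Hoxc10 lie below 0, and Hoxd8 is the other gene above 0.

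The D cluster, which like the A cluster patterns the limbs and the urogenital tract, had a narrower range of change. Hoxd10 was at 22.1, 29.4 and 17.02 FPKM in knockout libraries, against 2.47, 3.002 and 4.23 FPKM in wild-type libraries (log2 change 2.48, SE 0.24, limma adjusted p = 4.05e-05). Hoxa10 exceeded it by 4.62, 5.33 and 7.08 times in knockout libraries and by 2.78, 3.15 and 2.07 times in wild-type libraries, without overlap. Hoxd9 averaged 18.3 ± 5.02 FPKM in knockout and 2.65 ± 0.553 FPKM in wild type (n = 3 each), so that Hoxa9 stood at 0.683 to 0.933 times its level in knockout libraries and at 2.14 to 3.62 times in wild-type libraries. Hoxd11 averaged 4.99 ± 1.54 FPKM in knockout and 2.30 ± 0.425 FPKM in wild type (log2 change 0.84). Hoxa11 was 12.6 to 19.6 times as abundant as Hoxd11 in knockout libraries and 0.879 to 1.26 times in wild-type libraries.

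Hoxd8 was the other D gene that rose, at 7.54, 10.98 and 6.65 FPKM in knockout libraries and 4.26, 3.53 and 3.19 FPKM in wild-type libraries (log2 change 0.99, limma adjusted p = 0.00244). Among the genes of groups 9 to 13 that fell, Hoxb9 was at 1.96, 2.47 and 1.18 FPKM in knockout and 24.3, 19.0 and 21.1 FPKM in wild type (log2 change −2.99). Hoxa9 was therefore 5.59 to 11.6 times as abundant as Hoxb9 in knockout libraries and 0.224 to 0.415 times in wild-type libraries. Hoxc10 was at 0.0298, 0.0827 and 0.0864 FPKM in knockout and 1.37, 2.71 and 1.53 FPKM in wild type. Hoxd13, which like Hoxa13 acts in the digits and genital tubercle, was at 0.0666, 0.0205 and 0.0430 FPKM in knockout and at 8.84, 7.51 and 10.7 FPKM in wild type (log2 change −3.25). Differences between clusters were not tested.

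Cofactors that bind DNA with Hox proteins were lower in knockout. Of 9 genes of the Pbx, Meis and Pknox families 6 were in the table, and 5 of them fell by limma, where 49.2% of all genes tested were lower, with a median log2 change of −2.17 against 0.38 over all genes tested. Meis1 was at 3.11, 5.45 and 4.04 FPKM in knockout libraries and 28.2, 28.2 and 29.2 FPKM in wild-type libraries (log2 change −2.53). Meis2 averaged 8.58 ± 1.80 FPKM in knockout and 32.2 ± 2.73 FPKM in wild type, and Meis3 averaged 2.04 ± 0.775 in knockout and 23.0 ± 0.843 FPKM in wild type (n = 3 each). Pbx3 averaged 2.67 ± 0.325 FPKM in knockout and 28.3 ± 1.21 FPKM in wild type. Pbx2 averaged 19.6 ± 8.42 FPKM in knockout and 63.5 ± 4.83 FPKM in wild type. Pknox2 did not pass, at 11.6, 21.3 and 15.2 FPKM in knockout and 11.4, 10.4 and 10.9 FPKM in wild type (log2 change 0.48, limma adjusted p = 0.0675). It passed as higher without knockout replicate 1 (0.67, limma adjusted p = 0.00908), with trimmed-mean rescaling (0.85) and with quantile normalization (0.49). The 5 that fell did so in the libraries where neuron and limb markers were low, at the sums given above, and the part of tissue content was not tested.

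Genes that set up Hox expression moved in both directions. Of 18 genes of retinoic acid synthesis, breakdown and reception 9 were in the table, 3 higher and 6 lower, against 47.2% and 49.2% of all genes, with a median log2 change of −1.54. With quantile normalization Aldh1a1 (−0.98, limma adjusted p = 0.0597) and Cyp26a1 (−0.25, limma adjusted p = 0.133) no longer passed as lower. Dhrs3, a retinaldehyde reductase, was at 20.9, 45.2 and 35.0 FPKM in knockout and 8.76, 8.62 and 9.11 FPKM in wild type, and Aldh1a3, a retinoic acid synthase, averaged 11.6 ± 6.03 FPKM in knockout and 3.21 ± 1.18 FPKM in wild type. Aldh1a2, the main synthase of the early trunk, averaged 2.37 ± 1.42 FPKM in knockout and 23.5 ± 2.21 FPKM in wild type, and the binding protein gene Crabp1 averaged 14.6 ± 6.47 FPKM in knockout and 248 ± 10.02 FPKM in wild type. The other gene that passed as higher, Rdh10 (log2 change 0.53), overlapped between the genotypes and no longer passed when wild-type replicate 2 or 3 or knockout replicate 2 or 3 was left out, where its log2 change was 0.45 to 0.48.

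Of 10 axial inducers 5 were in the table and 3 were tested. Cdx2, a caudal factor that also acts in trophoblast, was at 2.59, 1.02 and 7.84 FPKM in knockout and 0.0736, 0.185 and 0.324 FPKM in wild type (log2 change 1.75, limma adjusted p = 0.00877). Gdf11, a ligand that switches on posterior Hox genes in the tail, averaged 1.44 ± 0.601 FPKM in knockout and 12.1 ± 0.9998 FPKM in wild type. Of the 3 tested, 1 rose and 2 fell, against 47.2% and 49.2% of all genes tested. Cdx2, below 1 FPKM in every wild-type library, had to be higher.

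Most Polycomb genes were lower and a few were higher. Of 24 on the list 12 were in the table, 3 higher and 9 lower, against 47.2% and 49.2% of all genes, with a median log2 change of −1.56. Cbx7 was at 14.7, 6.94 and 16.8 FPKM in knockout and 1.39, 1.00002 and 1.11 FPKM in wild type. It encodes a chromodomain reader of the Polycomb mark, as does Cbx6, which averaged 3.40 ± 0.639 FPKM in knockout and 20.4 ± 2.56 FPKM in wild type. Pcgf2, a ring finger subunit of the same complex, averaged 4.09 ± 0.925 FPKM in knockout and 25.7 ± 1.92 FPKM in wild type. Of 12 Trithorax and MLL genes only 2 were in the table and both fell, where 49.2% of all genes tested were lower. The methyltransferase subunit gene Dpy30 averaged 26.5 ± 4.32 FPKM in knockout and 84.0 ± 4.79 FPKM in wild type, and Men1 averaged 10.1 ± 2.87 FPKM in knockout and 33.7 ± 3.16 FPKM in wild type.

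Genes tied to Hoxa10 and Hoxa11 in the pregnant uterus were mostly higher in knockout. Of 24 on the list 20 were in the table and 18 were tested, with 13 higher, 4 lower and Igfbp1 not passing, and a median log2 change of 1.83, where 96.4% of all genes were called and 47.2% were higher. Pgr, Esr1, Ptger4 and Ptgs2 were below 1 FPKM in every wild-type library and Msx1 in every knockout library, so these 5 had to differ. Itgb3, an integrin subunit regulated by HOXA10 in human endometrium, was at 106, 135 and 107 FPKM in knockout and 5.03, 2.73 and 5.38 FPKM in wild type (log2 change 4.48, limma adjusted p = 2.08e-06). Hand2, a progesterone-dependent factor of uterine stroma that also acts in the limb, averaged 179 ± 21.6 FPKM in knockout and 21.1 ± 0.478 FPKM in wild type. Those that fell included the homeobox genes Msx1 (0.141 ± 0.0692 FPKM in knockout and 11.8 ± 0.770 FPKM in wild type) and Msx2 (1.31 ± 0.552 FPKM in knockout and 9.37 ± 0.956 FPKM in wild type). Fkbp4 and Ccnd3, which act in progesterone signalling and in decidual cell division, fell too (log2 changes −2.73 and −2.06). The list overlaps the decidual marker list in Pgr, Hand2, Bmp2 and Wnt4, and its count of higher genes was 10 without wild-type replicate 3.

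Genes of embryonic regions where Hoxa genes act, the hindbrain, the pharyngeal arches and the limbs, were mostly lower in knockout. All 13 tested hindbrain and pharyngeal arch genes, of 20 on the list, fell (median log2 change −3.09), against 49.2% of all genes tested. Of these, 10 were below 1 FPKM in every knockout library, passed the filter through wild type alone and so had to come out lower. The hindbrain gene Egr2, the other list member in the table, was not tested. It lay higher in knockout, at 0.301 to 0.963 FPKM, against 0.0551 to 0.205 FPKM in wild type. Without the filter on low values it was called higher. Alx4, a craniofacial homeobox gene, averaged 0.0358 ± 0.0299 FPKM in knockout and 11.48 ± 1.69 FPKM in wild type, and Pax9, needed in the pharyngeal pouches, averaged 0.0551 ± 0.0136 FPKM in knockout and 3.94 ± 0.0466 FPKM in wild type. Of 24 limb bud genes 19 were in the table, with 17 lower and 2 higher (median log2 change −2.60), against 49.2% and 47.2% of all genes, and 8 of the 17 had to be lower for the same reason. Msx1 was among those that fell, as was Sall3, a zinc finger gene of the distal limb, at 0.0287 ± 0.00645 FPKM in knockout and 3.44 ± 0.183 FPKM in wild type. The genes that rose were Hand2 and Bmp2, and Bmp2 (4.53 ± 1.38 FPKM in knockout, 2.40 ± 0.296 FPKM in wild type) no longer passed once wild-type replicate 3 was left out (0.60, limma adjusted p = 0.0613).

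Most genes in the table that flank the cluster were higher in knockout. Within 1000 kb on either side the table held 6 annotated genes outside the cluster, and 5 were tested, of which 4 were higher, against 47.2% of all genes. Tax1bp1, an autophagy receptor gene 453 kb beyond Hoxa13, averaged 167 ± 20.3 FPKM in knockout and 29.0 ± 6.44 FPKM in wild type (log2 change 2.50, limma adjusted p = 1.37e-05). Hibadh, an enzyme of valine breakdown 285 kb beyond Hoxa13, averaged 69.4 ± 9.22 FPKM in knockout and 25.6 ± 1.97 FPKM in wild type. On the other side, Skap2, an adaptor protein gene, averaged 16.0 ± 0.788 FPKM in knockout and 10.9 ± 1.35 FPKM in wild type, and no longer passed once wild-type replicate 2 was left out (0.42, limma adjusted p = 0.0584). Snx10 averaged 19.1 ± 6.87 FPKM in knockout and 6.70 ± 0.556 FPKM in wild type. Jazf1 overlapped between the genotypes, at 7.30, 2.76 and 6.51 FPKM in knockout and 4.32, 3.15 and 2.96 FPKM in wild type (log2 change 0.47, limma adjusted p = 0.176). It passed as higher without knockout replicate 2 (0.83, limma adjusted p = 0.00223), with trimmed-mean rescaling (0.81) and with quantile normalization (0.94). Nfe2l3, at 0.230 to 0.420 FPKM in knockout and 0.708 to 1.28 FPKM in wild type, was not tested.

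The genes nearest to each Hoxa profile were found by Euclidean distance of log2(FPKM + 1), centred on each gene's mean over the 6 libraries, as a description of likeness in these libraries. Nearest to Hoxa10 were Pqlc3, Bmp8a and Wt1, at distances of 0.283, 0.364 and 0.399. Wt1, a transcription factor gene of the kidney, gonad and decidua, was at 36.1, 55.6 and 39.5 FPKM in knockout and 2.64, 3.23 and 2.33 FPKM in wild type. Nearest to Hoxa11 were Arl4d, Fgl2 and Hpse, at 0.408, 0.426 and 0.485, and nearest to Hoxa11os were Tagap, Mal and Mndal, at 0.323 to 0.344. For Hoxa9 they were Epm2a, Mbnl1 and Zfc3h1, at 0.174 to 0.250. Lrig3, Peg12 and the Notch ligand gene Dll3 lay at 0.106 to 0.138 from Hoxa2, and Tal2, Cend1 and A730017C20Rik at 0.0950 to 0.139 from Hoxa7. Hoxa3 lay nearest to Myef2, Meis3 and Bcl9, at 0.241 to 0.299, and Hoxa5 to Shd, Pnmal2 and Tbx15, at 0.218 to 0.305.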

How the data were processed

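RNA-seq of 6 libraries was analysed, 3 labelled lnc956 knockout and 3 wild type. The deposited table gives 1 value per gene and library. It names no unit, and the deposited values were read as FPKM, computed by the authors, because Cufflinks 2.1.1 is the only quantifier named, beside TopHat2 2.0.8, per the submitters' processing notes. Where a few transcripts take much of a library, FPKM of the rest is lower. Of the 7101 genes, 3643 had a higher and 3458 a lower mean in knockout and 10 differed by a log2 ratio under 0.5, so its rows look chosen for differing, by an unstated rule. Adjusted p-values and shares cover this table alone.

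Read depth is not known, so no counting interval is given. From the most frequent ratio of values below 0.1 FPKM between libraries of a genotype, depth relative to replicate 1 was 1.08 and 1.03 in knockout replicates 2 and 3 and 0.930 and 1.06 in wild-type replicates 2 and 3.

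The test took the 6487 genes that reached 1 FPKM in 3 or more of the 6 libraries (614 were left out), as log2(FPKM + 1) with limma 3.58.1 in R 4.3.3, with lmFit and eBayes, trend and robust on, genotype as the only term, two-sided, and Benjamini-Hochberg adjustment at 0.05. Differences are knockout minus wild type. Alternatives were other pseudocounts, filters, rescalings, limma settings, a threshold of 0.01, leaving out 1 library at a time, and the replicate number as a block. The fit was tested on simulated data. Positions come from GENCODE M21 and promoters from RefSeq.

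The members and lists were chosen with earlier results of these data known. Named genes are every Hoxa row, other Hox genes of groups 9 to 13 or against their cluster, the 2 list members of smallest p in each direction, all cofactors, the 3 nearest profiles of members with a mean of at least 5 FPKM, and neighbours within 1000 kb. Esr1, Ptger4, Ptgs2, Aldh1a1, Cyp26a1, Fkbp4, Ccnd3, Rdh10 and Egr2 were named after their values were seen. So were the markers Dcn, Des, Pgr, Gzmd, Prl3b1 and Prl8a2. A few genes that this rule names are not reported here.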

Additional observations from a re-analysis of the deposited data

How the results depend on the processing

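All 9 Hoxa rows kept their direction and passed under the 16 alternatives, apart from Hoxa13, which a filter on the mean over the 6 libraries left untested. Of 2764 values under alternatives, 2720 were rated the same. For a single gene this meant that direction and call were kept. For a count it meant only that the count stayed near that of the main fit, so calls within it may have changed. The log2 change ranged from 0.63 to 1.23 for Hoxa9, 3.28 to 4.15 for Hoxa10, 3.40 to 4.84 for Hoxa11, −5.60 to −1.69 for Hoxa2, −4.47 to −1.44 for Hoxa3, −5.28 to −2.24 for Hoxa5, −4.67 to −1.33 for Hoxa7 and −3.32 to −0.36 for Hoxa13, with both ends of the ranges of the genes that fell set by the pseudocounts of 0.1 and 5. Without any filter on low values, 3 axial inducers and 1 hindbrain and pharyngeal arch gene were higher, because more genes were tested. The count of higher cofactors was 1 with trimmed-mean rescaling, 1 with quantile normalization, and 0 to 1 with each library left out, the 1 being without knockout replicate 1. The count of higher limb bud genes was 1 at a threshold of 0.01, and 1 to 2 with each library left out, the 1 being without wild-type replicate 3. The log2 change of Igfbp1, 0.02 with all libraries, turned to −0.98 with a pseudocount of 0.1, to −0.07 without wild-type replicate 2 and to −1.33 without knockout replicate 3 (limma adjusted p = 0.00508), and reached 0.93 without knockout replicate 2. The cause of these shifts other than the filter was not tested. With the replicate number as a block, 4 Hoxa rows were higher and 5 lower, 3038 and 3192 of all genes were called, and of the genes named with a call Rdh10 (0.53, limma adjusted p = 0.0637) and Wnt4 (0.48, limma adjusted p = 0.0661) did not pass. Libraries of different genotype with the same number share only that number: their deviations correlated at −0.0551, 0.0814 and 0.110 across genes, and not every library correlated best with its own number. Depth is unknown, and the lowest Hoxa values, below 1 FPKM, may rest on few fragments.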
